A study of Mus musculus with 22 samples.

Results

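The core circadian clock genes were followed in single mouse astrocytes whose calcium response to acute EtOH had been classified. They are Arntl, Clock, Per1, Per2, Per3, Cry1, Cry2, Nr1d1, Nr1d2 and Dbp, found in the deposited count table by their symbols, which gave 10 of its 23453 gene symbols. All 10 had a read in at least 5 cells, the filter used for every comparison between types. In mammalian cells CLOCK and BMAL1, the product of Arntl, bind DNA as a pair and switch on the Per and Cry genes, whose protein products return to the nucleus and repress that pair. The nuclear receptors REV-ERBα and REV-ERBβ, from Nr1d1 and Nr1d2, repress Arntl in a linked loop, and Dbp is an output gene that the CLOCK and BMAL1 pair drives directly. Astrocytes carry a clock of their own, and in culture the clocks of separate cells can drift out of step, so that cells sampled together can be at different phases.

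Each of the 22 libraries held the RNA of 1 astrocyte from a primary culture of the cortex of C57BL/6 mouse pups of postnatal day 0 to 1. The cultures had been kept without serum for 24 h, treated with 10 µM cytosine arabinoside for 12 h, an inhibitor of DNA synthesis that acts on dividing cells, and shaken to remove other glia. After the calcium imaging of the EtOH application, 6 cells with a sustained signal (S-type), 6 with a transient signal (T-type), 5 with mixed features (M-type) and 5 non-responders (NR) were picked. All cells had therefore met EtOH and no library of an untreated culture was analysed here. Neither the labels nor the methods name the animal, culture or clock time of a cell, so a type counted as a single sample and no test could be made between types. All differences below are descriptions, set beside the spread over cells.

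Total counts ran from 2937786 to 22131076 per cell. The T-type cells included the shallowest library and had a read for 6319 to 10614 genes each, against 9272 to 13070 in the cells of the other types. In every cell 10 or 11 of the 11 astrocyte markers had a read. The number of microglial markers with a read, of 12, reached 3 in an S-type cell, 12 in a T-type and an NR cell and 10 in an M-type cell, and their summed share stayed at or below 218 CPM in every cell. In the S-type cell J151_5 neuron markers took 2076 CPM and astrocyte markers 1383. Among T-type cells, J163_18 had 3329 CPM of oligodendrocyte lineage markers, J166_25 had 840 of mural cell and fibroblast markers, and J165_23 had 200 of endothelial markers. Few genes led these lists. In T-type the highest level of each list, as defined below, was that of Olig1 (16819), Col1a2 (1579) and Kdr (471). Olig1 was read in all 22 cells, whereas Sox10, Rgs5, Cldn5 and Cdh5 had no read in any cell. In S-type Stmn2 (7330) and Map2 (1001) were the highest neuron markers, with Snap25 at 0.33 and Rbfox3 and Nefl at 0. The medians over all cells were 207 CPM for neuron, 435 for oligodendrocyte lineage, 29.0 for mural and 0.25 for endothelial markers. Cell cycle markers took 8127 CPM in the S-type cell J151_5, 5170 in the S-type cell J150_3 and 4950 in the T-type cell J165_23, against a median of 378 over all cells. The part these differences had in the values below was not tested.

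Sequence elements through which the clock reads its own genes could be seen in RefSeq's promoter windows of GRCm38.p6, which span 250 bases before to 50 bases after a gene's start. The windows covered 9 of the 10 genes, with 13 starts, and the stretches shown are those that hold the palindromic E-box CACGTG, to which the CLOCK and BMAL1 pair binds, or the D-box, the site of DBP and its relatives. Both strands were searched, and capitals mark the match, with 20 bases on each side.
Cry1 E-box and E'-box: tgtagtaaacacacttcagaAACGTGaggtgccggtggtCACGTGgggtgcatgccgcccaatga
Per1 E-box: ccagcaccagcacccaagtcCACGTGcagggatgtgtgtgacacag
Per3 D-boxes: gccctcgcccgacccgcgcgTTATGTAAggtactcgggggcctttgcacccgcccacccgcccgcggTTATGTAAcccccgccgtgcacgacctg

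The Cry1 stretch lies on the minus strand at chr10:85185089-85185153, upstream of the gene, and holds the E-box 60 bases before the start. A variant of it, CACGTT, read here on the other strand as AACGTG, lies 79 bases before the start. The Per1 stretch, on the plus strand at chr11:69098763-69098808, lies upstream of the RefSeq start used here. GENCODE vM21 lets Per1 begin farther upstream, so the stretch falls within the gene's span but in none of its exons. The Per3 stretch, on the minus strand at chr4:151044796-151044890, lies upstream of Per3 and within the span of Camta1 on the same strand, outside its exons, and holds 2 copies of the D-box TTATGTAA, at 205 and 158 bases before the start.

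CACGTG was found in the windows of Cry1 and Per1, which are 2 of the 9 genes, and in 7.15% of all 32851 windows. CACGTT was found in those of Cry1, Cry2 and Nr1d1 and in 4.68% of all windows. A D-box, searched as TTATGTAA or TTACGTAA, was found in that of Per3 alone among the 9 genes and in 1.06% of all windows. The letters AGGTCA, the core site of nuclear receptors such as the REV-ERB proteins, stood in a window of Arntl, Clock, Nr1d2 and Per1 and in 16.3% of all windows. The 9 genes had 13 windows, so a gene with more than 1 window had more than 1 chance of a match. Counts of genes and shares of windows are thus not like for like. These matches describe letters only, and no binding was measured.

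A typical cell contained reads of nearly all of these genes. The median cell had a read for 9 of the 10, and Cry2 and Dbp had a read in all 22 cells. Clock and Nr1d2 were found in 21 cells, Cry1 in 20, Arntl and Nr1d1 in 18, Per3 in 17, Per2 in 16 and Per1 in 15. The 3 Per genes were thus the ones most often without a read.

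Per cell, a median of 10 of the genes was found in M-type, 9.5 in S-type, 9 in NR and 7 in T-type. The lowest number was 3, in the T-type cell J162_16, which had a read for 6319 genes, the fewest of all cells. With every cell thinned to the 2937786 reads of the smallest library, the medians were 9, 9, 9 and 6.5 in the same order of types. T-type cells lacked a read for a larger share of genes in general: of the 12719 genes passing the filter, 19.8% to 51.4% had none in a T-type cell, against 5.2% to 28.5% in cells of the other types. Fewer detected clock genes in T-type therefore cannot be told apart from fewer detected genes of any kind.

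**Figure D1:**
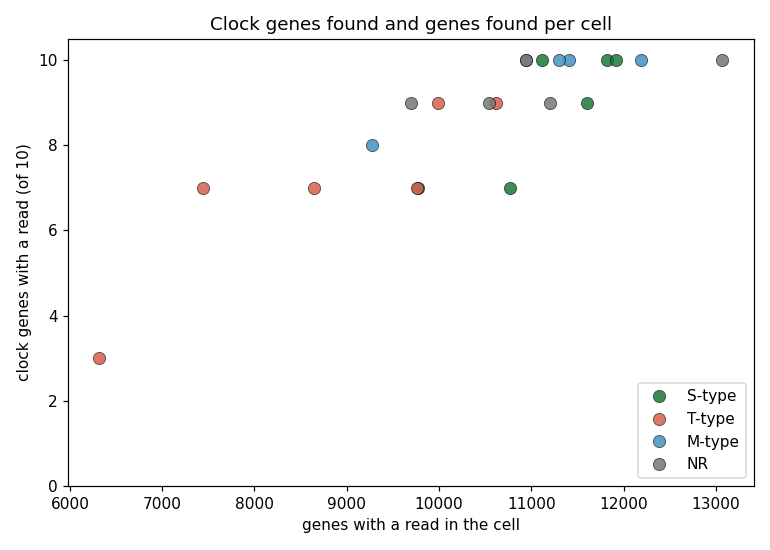
Number of the 10 clock genes with a read (vertical axis) against the number of all genes with a read (horizontal axis), with 1 point per cell coloured by response type. The T-type cell with 6319 genes had 3 clock genes, and every cell with all 10 had at least 10937 genes with a read.

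A normalized count is the count over the median-of-ratios size factor of its cell, and a type's level for a gene is the mean of the normalized counts of its cells. Per kb of exon, so that genes can be compared, the mean of the 4 type levels was highest for Nr1d2, at 279. Dbp followed at 147, Clock at 124 and Cry1 at 108 per kb. Their order is uncertain given the spread between cells, and J151_5 alone held 65.3% of the S-type Clock level. Arntl stood at 48.1 per kb, Cry2 at 25.5, Per2 at 24.9, Per3 at 23.1 and Nr1d1 at 21.6, and these last 4 were too close to be ordered given the spread between cells. Per1 was the lowest, at 5.06 per kb. Amplification in 2 rounds favours the 3′ end of a transcript, so this order is approximate.

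Cells of 1 type differed widely in every gene, and for each gene except Per2 the cells of every pair of types overlapped. In 31 of the 40 pairs of a gene and a type the standard deviation over cells was at least as large as the level, and in 28 of the 40 a single cell held over 50% of the type's signal. Of the Arntl signal of NR, 85.7% came from J186_5, and of the Per3 signal of T-type, 98.1% came from J163_18, the shallowest library. The extremes were spread over many cells: the highest value of Clock and Nr1d2 was in J151_5, that of Per2 and Per3 in J172_23, that of Cry1 and Nr1d1 in J165_23, and those of Arntl, Per1, Cry2 and Dbp in 4 further cells.

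**Figure D2:**
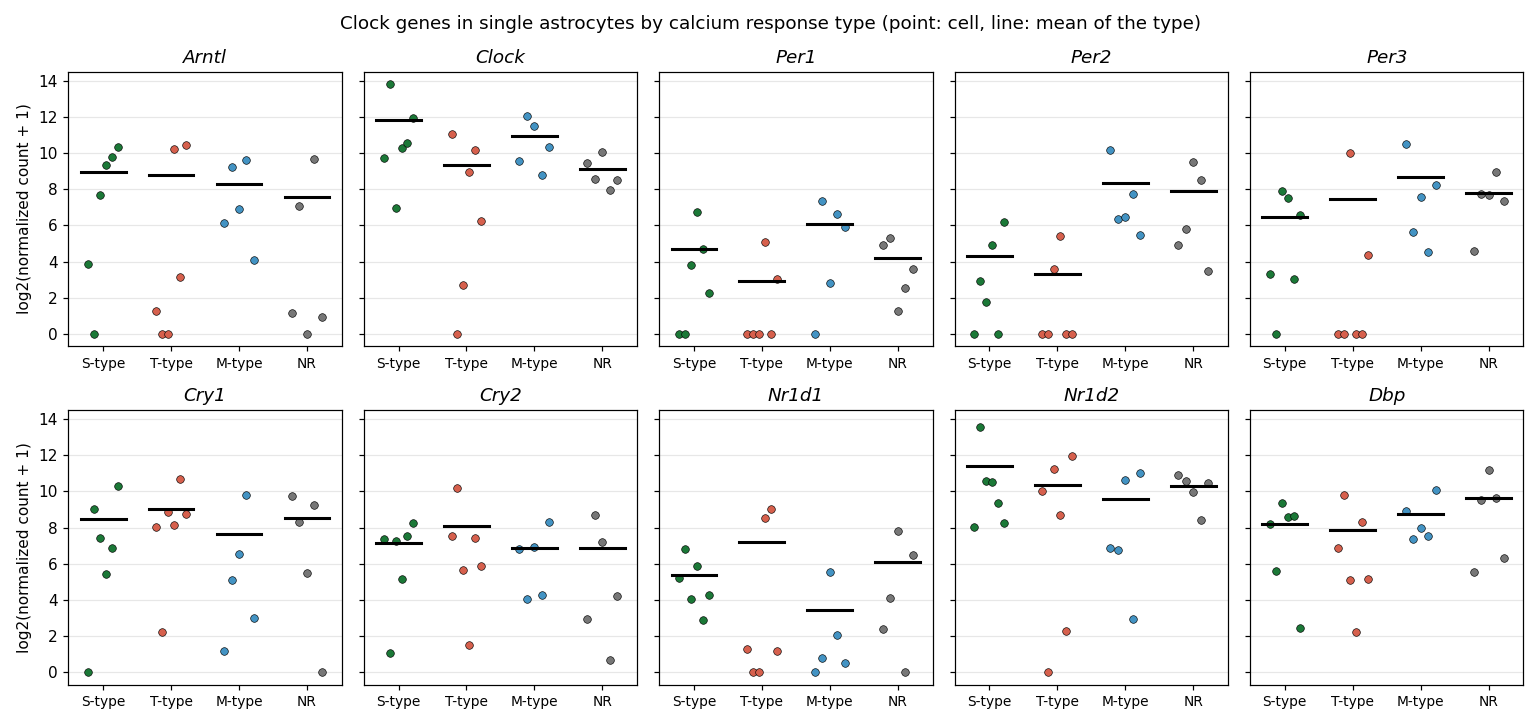
Each panel shows 1 clock gene, with log2(normalized count + 1) on the vertical axis and the 4 response types on the horizontal axis. Points are cells and lines are the mean level of the type, and in every panel but that of Per2 each type's points overlap those of all the other types.

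On GRCm38, by GENCODE vM21, Clock lies at chr5:76209868-76304792, Arntl at chr7:113207465-113314126, Per1 at chr11:69095217-69109960, Per2 at chr1:91415982-91459324 and Per3 at chr4:151003652-151044665. Cry1 lies at chr10:85131700-85185064, Cry2 at chr2:92403646-92434043, Nr1d1 at chr11:98767932-98775333, Nr1d2 at chr14:18204054-18239127 and Dbp at chr7:45705088-45710203. The counts are of reads in the exons of these genes.

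Clock encodes the activating partner of BMAL1, and its transcript was highest in S-type and M-type. In S-type the normalized count ran from 124 to 14408 with a median of 1377, and in T-type from 0 to 2147 with a median of 283. The 5 M-type cells had 753, 4335, 2946, 437 and 1297, and the 5 NR cells 706, 375, 1082, 247 and 368. The ranges overlapped in all comparisons of types, and the highest value, in the S-type cell J151_5, was followed by 4335 in the M-type cell J173_25.

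The mean level of Clock was 3677 ± 5412 in S-type and 645 ± 859 in T-type (SD, n = 6 each). It was 556 ± 339.96 in NR and 1954 ± 1645 in M-type (SD, n = 5 each). S-type stood 6.62-fold above NR, a log2 ratio of 2.73 with a 95% counting interval of 2.68 to 2.77. That interval reflects reads only and not the spread between cells, as do all intervals given here. Without J151_5 the log2 ratio was 1.46, and leaving out any other cell kept it between 2.54 and 3.12. M-type stood 3.52-fold above NR, with a log2 ratio of 1.81 that stayed at 1.29 to 2.20 when any cell was left out. T-type was 5.70-fold below S-type, a log2 ratio of -2.51 that became -1.25 without J151_5. Between T-type and NR the log2 ratio was 0.22, and -0.69 without J161_9.

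Arntl encodes BMAL1, without which the loop cannot run, and its transcript was spread over the whole range from no read to the highest cell. S-type ranged from 0 to 1275 with a median of 431, and T-type from 0 to 1414 with a median of 4.59. The M-type cells had 69.4, 594, 118, 788 and 16.0, and the NR cells 1.21, 133, 0, 805 and 0.93. No read was found in 4 cells and at most 3 reads in 7, whereas the S-type cell J156_16 and the T-type cells J164_19 and J166_25 had 1275, 1213 and 1414.

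The level of Arntl was 503 ± 516 in S-type and 439 ± 680.1 in T-type (SD, n = 6 each), and 188 ± 349.6 in NR and 317 ± 349.97 in M-type (SD, n = 5 each). Their cells overlapped in all pairs of types. S-type and T-type stood above NR with log2 ratios of 1.42 and 1.22, which became 3.90 and 3.70 without the NR cell J186_5. They fell short of 2-fold at 0.89 without the S-type cell J156_16 and at 0.38 without the T-type cell J166_25. The M-type ratio to NR, 0.75, became 3.23 without J186_5 and 0.08 without the M-type cell J175_18.

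Since both partners are needed, their transcripts were also set side by side in each cell per kb of exon. Clock was above Arntl in 15 cells and Arntl above Clock in 6, and J162_16 had no read of either. In the S-type cells J154_8 and J155_9 they were nearly equal, with a ratio of Clock to Arntl of 1.05 and 0.94. The T-type cell J166_25 had 188 per kb of Arntl against 5.37 of Clock. By contrast the S-type cell J151_5, with 1050 per kb of Clock, had no Arntl read among its 14249029 reads. Over the 22 cells Spearman's rho between the genes was 0.05.

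**Figure D3:**
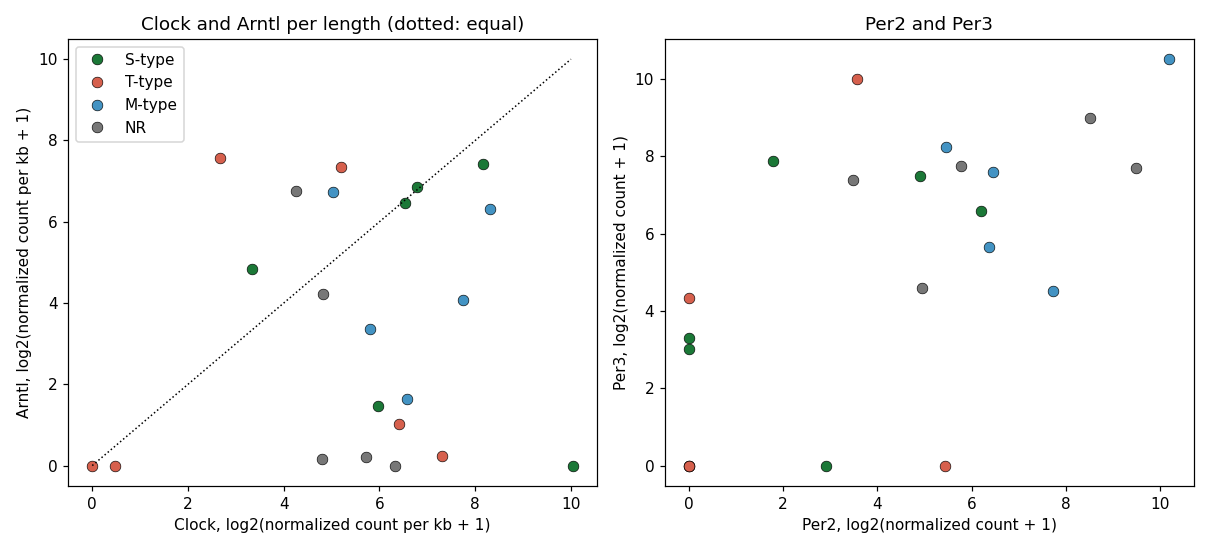
Left, Arntl against Clock, both as log2(normalized count per kb + 1), with the dotted line where they are equal. Right, Per3 against Per2, both as log2(normalized count + 1). Each point is a cell coloured by type. Clock was the higher of the pair in 15 of 22 cells, and the 3 T-type cells at the origin of the right panel lie on top of each other.

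The Per genes encode the PERIOD proteins, the limiting part of the repressor complex. Taken as a family, they had their lowest median over cells in T-type. No read of Per1, Per2 or Per3 was found in 3 of the 6 T-type cells, J161_9, J162_16 and J165_23, and each cell of the other types had at least 1 read of the family. These cells were picked out after their values were seen. Their libraries held 15555483, 12564138 and 19279519 reads, and 24.8%, 51.4% and 32.7% of the 12719 filtered genes had no read in them. The S-type cell J150_3, where this share was 25.3%, had 10 Per3 reads and no read of Per1 or Per2. When all cells were thinned to the smallest library the same count of cells, 3 in T-type and 0 in the other types, had no Per read, but the S-type cells J150_3 and J151_5 then kept 1 Per read each. All 3 Per genes were found together in 5 of 5 NR cells, 4 of 5 M-type cells, 3 of 6 S-type cells and 0 of 6 T-type cells. Of all filtered genes, 19.8% to 51.4% had no read in a T-type cell, against 5.2% to 28.5% in cells of the other types. Fewer Per genes found in T-type thus cannot be told apart from fewer detected genes of any kind.

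The summed normalized count of the 3 Per genes ranged from 6.503 to 315 in S-type with a median of 102, and from 0 to 1025 in T-type with a median of 13.1. M-type cells ranged from 286 to 2635 with a median of 330, and NR cells from 82.0 to 928 with a median of 307. The T-type cell J163_18 alone exceeded 74.8 within its type. Cry1 or Cry2, the other part of the repressor complex, was read in every cell, the 3 without a Per read included.

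Per2, without which mice lose stable rhythms, had the largest ratios between types among the 10 genes. S-type cells ranged from 0 to 72.7 with a median of 4.47, and T-type cells from 0 to 42.0 with a median of 0. In M-type the cells had 1175, 81.9, 87.2, 211 and 42.8, and the NR cells 29.7, 53.9, 721, 365 and 10.2. Every M-type cell was above every T-type cell, by a narrow margin of 42.8 to 42.0, whereas the cells overlapped in all other pairs of types. Of all filtered genes, 0.66% had every M-type cell above every T-type cell. T-type had no Per2 read in 4 of 6 cells, and S-type in 2 of 6.

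The level of Per2 was 18.4 ± 28.8 in S-type and 8.81 ± 16.8 in T-type (SD, n = 6 each), and 319 ± 482 in M-type and 236 ± 308 in NR (SD, n = 5 each). T-type was 26.8-fold below NR, with a log2 ratio of -4.74 and an interval of -5.38 to -4.18 from 25 against 1768 reads. S-type was 12.8-fold below NR, with a log2 ratio of -3.68 and an interval of -3.94 to -3.43. The S-type libraries held 12229280 to 16254761 reads and those of NR 15057892 to 19930655. Leaving out any cell kept the ratios to NR at -6.76 to -3.70 and -4.96 to -2.64. Between M-type and NR the log2 ratio was 0.44, and it ran from -1.16 to 1.48 with cells left out. Between T-type and S-type, both low, the ratio of -1.06 turned to 0.22 without the S-type cell J156_16.

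Per3, which is less central to the loop than its paralogs, also had its highest mean level in M-type, through 1 cell. Its normalized count in S-type ran from 0 to 236 with a median of 52.3, and in T-type from 0 to 1015 with a median of 0. Values in the 5 M-type cells were 1460, 49.7, 193, 21.8 and 303, and in the NR cells 23.1, 214, 205, 506 and 165.01. The level was 405 in M-type, 223 in NR, 172.3 in T-type and 88.1 in S-type. Of the M-type level 72.0% came from J172_23, without which the log2 ratio to NR went from 0.86 to -0.65, and the median over cells was 193 in M-type and 205 in NR. The T-type level rested on J163_18, the library of 2937786 reads, and without this cell the T-type ratio to S-type went from 0.97 to -4.52 on the log2 scale. S-type was 2.53-fold below NR, with a log2 ratio of -1.34 that stayed at -1.93 to -0.79 with cells left out.

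Per1, an immediate target of many stimuli, was the scarcest of the 10 genes, with 921 reads in all. Among S-type cells it ran from 0 to 106 with a median of 8.25, and in T-type from 0 to 32.8 with a median of 0. M-type cells had 0, 164.5, 6.09, 97.5 and 59.6, and the NR cells 29.1, 39.1, 1.44, 4.79 and 11.1. M-type was highest, at 65.6 ± 68.4 against 17.1 ± 16.3 in NR (SD, n = 5 each), a log2 ratio of 1.94 with an interval of 1.67 to 2.21. It stayed at 1.25 to 2.50 with any cell left out, although the M-type cell J172_23 had no read. T-type, with 29 reads in all, was at -1.89 against S-type and -1.37 against NR. These ratios became -4.13 and -3.60 without the T-type cell J164_19, whereas the former became -0.32 without the S-type cell J154_8 and the latter -0.81 without the NR cell J183_1, both short of 2-fold. Over all cells Per1 had a rho of 0.68 with the number of genes with a read, the highest of the 10 genes, whose values otherwise lay between 0.01 and 0.41.

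The cryptochromes block CLOCK and BMAL1 directly. Cry1 ranged in S-type from 0 to 1279 with a median of 145, and in T-type from 3.63 to 1656 with a median of 360. Cells of M-type had 1.25, 32.9, 90.5, 881 and 6.91, and the NR cells 872, 315, 43.1, 617 and 0. The level was 516 in T-type, 369 in NR, 356 in S-type and 203 in M-type. No log2 ratio of Cry1 in the 4 comparisons reached 1 in size, and the largest, -0.87 for M-type against NR, became -3.49 without the M-type cell J175_18.

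Cry2 was read in every cell. In S-type cells it ran from 1.08 to 309 with a median of 155.4, and in T-type from 1.82 to 1175 with a median of 114. The M-type cells had 111, 15.4, 120, 18.2 and 315, and the NR cells 6.68, 411, 144, 0.60 and 17.6. The levels of S-type, M-type and NR were 139.6, 116 and 116, but 70.9% of that of NR came from J183_1. Without this cell the log2 ratio to NR went from 0.27 to 1.73 for S-type and from -0.00 to 1.46 for M-type. T-type stood at 273, and its ratio to NR of 1.23 on the log2 scale became -0.33 without J162_16. The exons of Cry2 share 295 bases with D930015M05Rik on the opposite strand, and whether the counting used strand is not given in the sources used here.

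Nr1d1, which encodes REV-ERBα and cycles strongly in most tissues, was lowest in M-type. S-type cells ranged from 6.28 to 109 with a median of 27.5, and T-type cells from 0 to 516 with a median of 1.34. In M-type the cells had 0, 0.70, 45.0, 3.11 and 0.43, and the NR cells 4.25, 15.9, 226, 0 and 89.9. In T-type 2 cells, J164_19 and J165_23, had 372 and 516, and the other 4 had at most 1.41. All S-type cells had at least 8 reads, and S-type was the only type in which every cell had a read.

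M-type stood 6.82-fold below NR in Nr1d1, with a log2 ratio of -2.77 and an interval of -3.09 to -2.46 from 104 against 446 reads. Leaving out any cell kept the ratio between -5.98 and -1.48. T-type stood above S-type in the mean, with a log2 ratio of 1.87, but below it by the median of the cells, where the log2 ratio with a pseudocount of 1 was -3.60. The exons of Nr1d1 share 263 bases with Thra on the opposite strand. Over the 22 cells rho between Nr1d1 and Thra was -0.26.

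Nr1d2, for REV-ERBβ, was the most abundant of the 10 per kb. Its normalized count in S-type ran from 258 to 12011 with a median of 1067, and in T-type from 0 to 3939 with a median of 735. Values in the 5 M-type cells were 118, 107, 1588, 6.74 and 2057, and in the NR cells 1910, 1555, 990.2, 342 and 1405. NR cells were the most even, and M-type cells fell into 2 at 1588 or more and 3 at 118 or less. The S-type level of 2710 was 2.18-fold above that of NR, at 1241, but 73.9% of it came from J151_5, and without that cell the log2 ratio changed from 1.13 to -0.54. Likewise the ratio of T-type to S-type went from -1.05 to 0.62.

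Dbp, the output gene, had its highest mean level in NR, a rank over M-type that rested on 1 cell. Among S-type cells it ran from 4.45 to 661 with a median of 336, and in T-type from 3.65 to 910.3 with a median of 74.3. M-type cells had 474, 164.5, 249.9, 184 and 1088, and the NR cells 44.9, 727, 2353, 806 and 79.7. NR cells thus fell into 3 at 727 or more and 2 at 79.7 or less, within the range of the other types at the low end. NR stood at 802 ± 936 (SD, n = 5) against 297 ± 244 in S-type and 235 ± 350 in T-type (SD, n = 6 each). The log2 ratio of S-type to NR was -1.44 and that of T-type -1.77, which became -0.48 and -0.82 without the NR cell J185_4, in which Dbp was highest. M-type stood at 432, with a log2 ratio to NR of -0.89 that became 0.06 without that cell. Dbp shares 539 bases of its exons with Sphk2 on the opposite strand, and rho between the 2 genes was 0.22.

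As a list, the clock genes were past 2-fold about as often as genes in general. T-type against S-type had 1 gene at least 2-fold higher, Nr1d1, where 25.3% of all filtered genes were, and 4 lower, Clock, Per1, Per2 and Nr1d2, where 32% of all were. Between T-type and NR, 3 were higher (Arntl, Cry2 and Nr1d1) and 3 lower (Per1, Per2 and Dbp), with 27.9% and 32.2% of all genes. Between S-type and NR, 3 were higher (Arntl, Clock and Nr1d2) and 3 lower (Per2, Per3 and Dbp), with 25% and 22.3% of all genes. M-type against NR had 2 higher (Clock and Per1) and 1 lower (Nr1d1), with 19.6% and 27.9% of all genes. Each comparison with NR used the same 5 NR cells.

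The median log2 ratio of the 10 genes was -0.27 for T-type against S-type and 0.15, 0.11 and 0.22 for T-type, S-type and M-type against NR. Over all filtered genes the medians were -0.09, -0.07, 0.03 and -0.20. None of the 10 genes had cells that did not overlap in these 4 comparisons, where 0.771%, 0.991%, 0.409% and 0.598% of all genes did, in the same order. Scaling changed the balance between T-type and the others: with CPM computed on pooled reads, 16.1% of all genes were at least 2-fold higher and 39.7% lower in T-type than in S-type, and the median of all genes moved to -0.56.

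Of the 40 ratios (10 genes in 4 comparisons), 20 were at least 2-fold in size. With each cell left out in turn, 16 of the 20 kept their sign and 7 stayed at least 2-fold. These 7 also stayed so under the 6 other ways of computing the level that were tried. They were Clock in T-type against S-type and in S-type and M-type against NR, Per2 in T-type and S-type against NR, and Per1 and Nr1d1 in M-type against NR. By comparison, 24.8% of all filtered genes stayed at least 2-fold without each cell in T-type against S-type, where 1 of the 10 clock genes did, and 25.1% in T-type against NR, where 1 did. The share was 19.1% in S-type against NR, with 2 clock genes, and 18.4% in M-type against NR, with 3. These counts were near the background and are no result about the clock genes as a list.

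**Figure D4:**
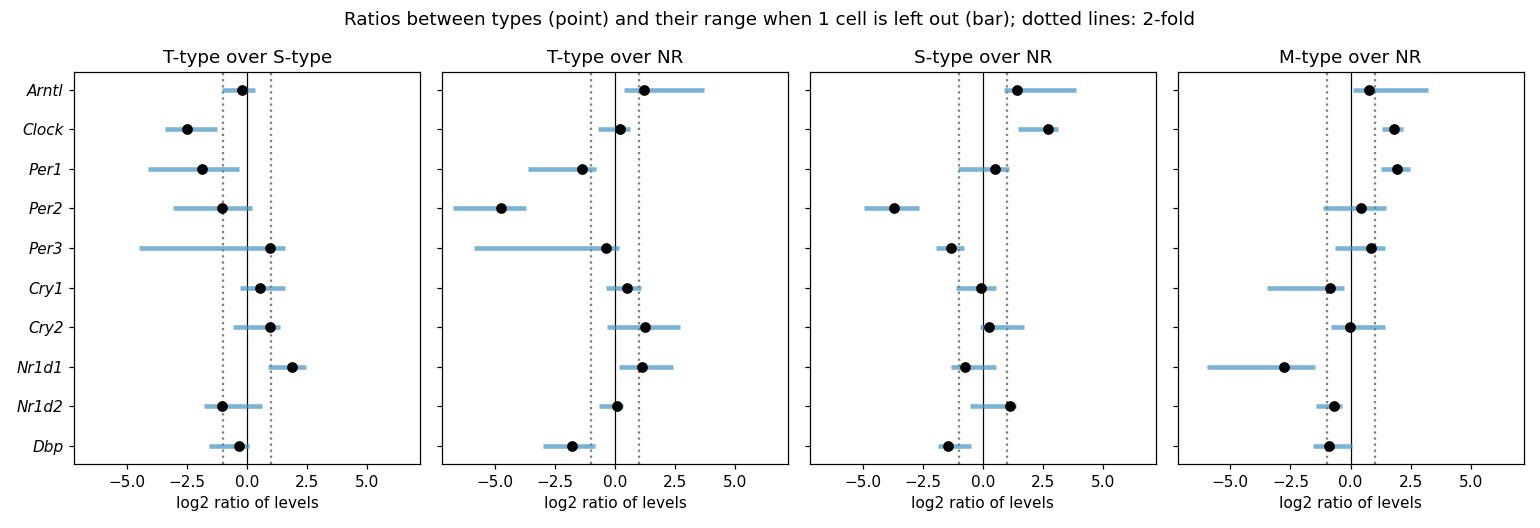
Log2 ratio of the type levels (horizontal axis) for each of the 10 genes (vertical axis) in the 4 comparisons. Points are the ratios with all cells, bars their range when each cell is left out in turn, and dotted lines mark 2-fold. The bars of 7 ratios lie wholly beyond the dotted lines, among them Per2 in T-type and S-type against NR.

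In a running loop the activators and repressors move in a fixed order, so the genes were also compared with each other over cells. Over the 22 cells Spearman's rho of the log2 values between the 45 pairs had a median of 0.02 and ran from -0.39 to 0.63, and 24 pairs were above 0. The cells differed in depth and may share cultures, so these are descriptions. Per2 and Per3 had the highest rho, 0.63, which was 0.31 after the mean of each type had been removed. Arntl and Per1 followed with 0.53, or 0.64 within types, and Cry2 and Dbp with 0.43, or 0.57 within types. With the share of cell cycle markers Per2 and Per3 had rho of -0.51 and -0.52, and Clock and Nr1d1 0.40 and 0.41. J151_5, which held 65.3% of the S-type Clock level, also had the highest such share, and its part in that level was not tested.

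**Figure D5:**
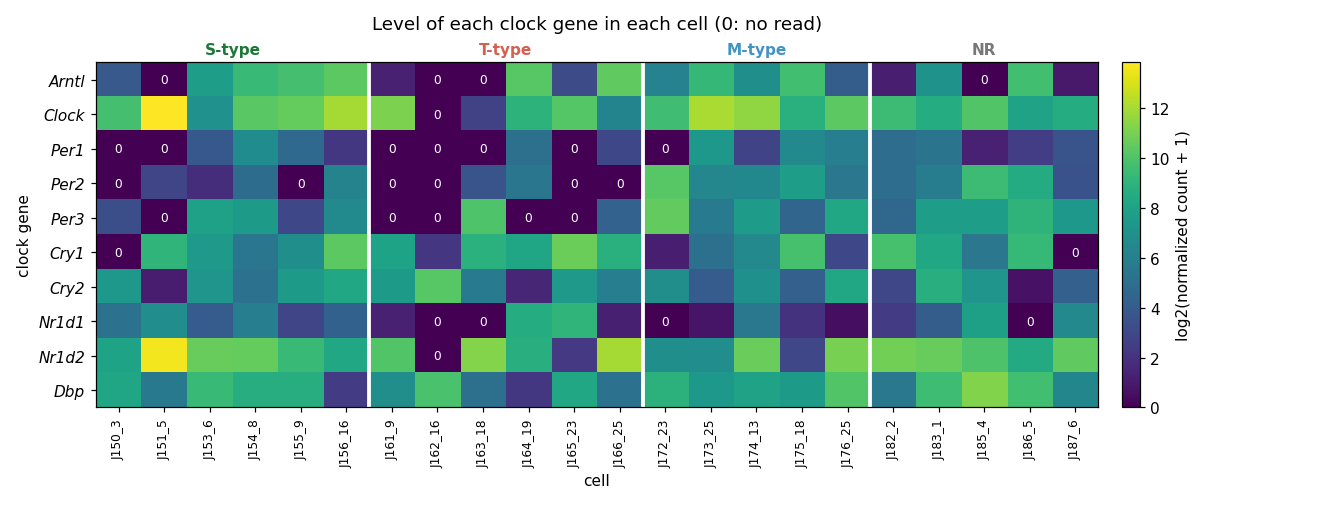
Log2(normalized count + 1) of the 10 genes (rows) in the 22 cells (columns, grouped by type), with 0 where a cell had no read. No read of Per1, Per2 or Per3 was found in the T-type cells J161_9, J162_16 and J165_23, and each other cell had a read of at least 1 of them.

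The genes most like each clock gene over the 22 cells, among 9363 compared, had rho of 0.72 to 0.89. These are the highest values of a search over 9363 genes with 22 cells. No such search was run for other genes, so values of this size cannot be read as co-regulation. The first for each was Med9 for Arntl (0.83), Rfc2 for Clock (0.82), Aldh5a1 for Per1 (0.89), Rnf138 for Per2 (0.83) and Ttc17 for Per3 (0.79). It was Armcx2 for Cry1 (0.76), Ube2j1 for Cry2 (0.74), Tmem11 for Nr1d1 (0.77), Nipsnap1 for Nr1d2 (0.84) and E130309D02Rik for Dbp (0.82). No clock gene was the closest of another.

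Other genes of the clock pathway were taken from a list of 38, all with a row in the table (3 under older symbols), of which 36 passed the filter. T-type against S-type had 13 of these at least 2-fold higher and 7 lower, and T-type against NR 14 higher and 9 lower. S-type against NR had 7 higher and 8 lower, and M-type against NR 3 higher and 8 lower. The background shares for these counts are those given for the 10 genes. The balance in the T-type comparisons turned with the scaling, under which all genes also moved towards lower in T-type. Against S-type it was 5 higher and 11 lower with CPM on pooled reads, 5 and 10 with mean CPM, 8 and 11 with the median over cells, and 7 and 8 without J162_16. Against NR it was 9 and 11 with mean CPM and 7 and 12 with the median over cells. Of all filtered genes, 16.1% were higher and 39.7% lower than in S-type with CPM on pooled reads. These shares were 16.4% and 37.5% with mean CPM, and 10.2% and 45.1% with the median over cells. Against NR, 18.9% were higher and 37.6% lower with mean CPM, and 40.1% were lower with the median over cells. The turn with scaling thus cannot be read as a trait of the 36 genes. No such shares were computed without J162_16.

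The paralogs of the activators were nearly absent. Npas2, which can stand in for Clock, had 7 reads in all, 5 in S-type and 2 in NR, and Arntl2 had 105, all in the M-type cell J174_13. Of the ROR receptors, which activate Arntl at the sites where REV-ERB proteins repress it, Rorb had levels of 3222 in T-type, 695 in S-type, 421 in NR and 299 in M-type. Of the T-type level of Rorb 82.5% came from J162_16, the cell with the fewest genes read. Rora stood at 18.1, 41.3, 105 and 89.7 in the same order of types. Tef, a relative of Dbp, had levels of 666, 276, 1029 and 199, and Nfil3, a repressor at the same D-box, 114, 150.8, 626 and 218. A single cell held 73.9% and 73.0% of the NR levels of Tef and Nfil3.

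The repressor Bhlhe41 (DEC2) had levels of 2943 in T-type, 2344 in S-type, 1342 in NR and 1921 in M-type, but 65.7% of the T-type level came from J161_9, and the T-type median over cells, 708, was the lowest of the 4. Cipc, an inhibitor of CLOCK, had 1878, 3801, 1315 and 1069 in that order. Of its T-type level 77.2% came from J164_19, and its T-type median over cells, 225, was also the lowest of the types. The kinase gene Csnk1a1 had 16248, 8533, 7532 and 8792, and Csnk1d, whose product marks PER proteins for decay, 1067, 2067, 2713 and 1466. Among the parts of ubiquitin ligases, Fbxw11 had 3675, 3183, 3902 and 2754. The corepressor Ncor1 had 9548, 3309, 2269.8 and 3280.5 and Sfpq, whose product is found with PER proteins, 13442, 5180.1, 3134 and 2551, again in that order. Single cells held 64.0% (J161_9, Ncor1) and 66.0% (J162_16, Sfpq) of these T-type levels, and the T-type median of Ncor1, 2646, was below those of M-type and NR, at 3622 and 2698.

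Between S-type and NR the cells of Tipin and Ciart did not overlap, as was the case for 0.409% of all genes. Tipin, a partner of TIMELESS at replication forks, ran from 566 to 2166 in S-type and from 0.60 to 521 in NR, with a log2 ratio of 2.29 and an interval of 2.21 to 2.36. Ciart, a repressor of the CLOCK and BMAL1 pair, had 57 reads in S-type and 6 in NR, at levels of 8.80 and 0.78. Its cells ran from 2.23 to 30.3 in S-type and from 0 to 2.16 in NR, so the gap was at the level of a few reads.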

How the data were processed

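The RNA of each cell had been amplified in 2 rounds of antisense RNA synthesis, made into stranded libraries and sequenced as read pairs. The authors aligned the reads to GRCm38 with STAR and deposited raw counts of unique exonic reads per gene symbol, which their methods credit to VERSE and the submitters' processing notes to HTSeq. Versions and the strand setting are not given in the sources used here. There were no molecular identifiers, so intervals cover counting error of amplified reads only.

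Size factors were medians of ratios, taken over 3670 genes read in all cells (NumPy 2.4.6, pandas 2.3.3, Python 3.11.15). The level of a type was the mean of normalized counts over its cells, and a type without a read was set to 3 reads over its summed size factors. Comparisons were limited to the 12719 genes read in at least 5 cells. Intervals (95%) came from the exact binomial split of a gene's reads between types (SciPy 1.17.1). Correlations used log2(normalized count + 1). T-type was compared with S-type, and each responding type with NR. No p-value was computed.

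Alternatives were TMM factors (edgeR 4.0.16), CPM of pooled reads, mean CPM, cells thinned to the smallest library, a pseudocount of 1 added to both levels, the median over cells with that pseudocount, and leaving out each cell in turn. Positions and exon lengths came from GENCODE vM21, promoter windows from RefSeq. The scripts were tested on simulated data. The 10 genes and all lists were chosen with earlier results of these data known. Named in the text are all 10 genes, the 2 with the most reads from each subgroup of the other clock genes, those of them at least 2-fold apart whose cells did not overlap, and the genes with the highest correlation with each of the 10. A result that this rule selects is not reported here. The cells named one by one, and the count of cells without a Per read, were picked out after the values were seen.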

Additional observations from a re-analysis of the deposited data

Results flagged for a closer look

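Dixon's ratio on log2 values was above its 95% critical value in 4 of 52 groups of cells. Of the 40 groups that hold a single clock gene, 1 was flagged, and the other flags were in per-cell summaries of the 10 genes. The groups share cells and some hold tied values, so these counts cannot be set against a chance rate. In T-type the cell J162_16 stood apart with a normalized count of 3.63 for Cry1, from 1 read. The same cell stood apart with 3 of the 10 clock genes found. In M-type the cell J172_23 was flagged with 8 of the 10 found. Every other M-type cell had all 10, so the ratio would have been at its maximum for any lower number. J172_23 lacked Per1 and Nr1d1 while it had the highest Per2 and Per3 of all cells. In S-type the cell J151_5 stood apart with 1755 CPM for the 10 genes together, most of them from Clock and Nr1d2.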

How the results depend on the processing

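Cells rather than reads limited these values, and with 5 or 6 cells per type, 28 of 40 type levels rested mainly on 1 cell. For T-type against S-type the median log2 ratio of the 10 genes was -0.37 with TMM, -1.07 with pooled and -0.71 with mean CPM, -0.48 with thinned cells and -2.36 with the median over cells, where 7 genes were lower. For T-type against NR it was -0.0098 with pooled and -0.26 with mean CPM, 0.031 with thinned cells and -1.89 with the median over cells, where 5 were lower. Pooling also moved the median of all genes from -0.07 to -0.54 in that comparison, with 18.2% of genes higher and 40% lower. For S-type against NR it was -0.011 with mean CPM, -0.041 with thinned cells and -0.39 with the median over cells, and for M-type against NR 0.35 with TMM and 0.074 with thinned cells, while the median over cells gave 4 genes higher and 4 lower. With the median over cells, 45.1% of all genes were lower in T-type than in S-type, and the median of all genes was -0.78. Against NR, 40.1% of all genes were lower in T-type, and in M-type 22.1% were higher and 22.6% lower. The median number of genes found became 9 in M-type with thinned cells, and 9 in M-type and 8 in NR when 5 reads were asked for.

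Without each cell in turn, the median ran from -0.69 to 0.28 (T-type against S-type), from -0.069 to 0.30 (T-type against NR), from -0.37 to 0.49 (S-type against NR) and from -0.47 to 0.42 (M-type against NR). The number of genes higher ran, in the same order, from 1 to 3, 1 to 3, 2 to 5 and 2 to 4, and the number lower from 2 to 5, 2 to 4, 2 to 4 and 1 to 3. The shares of all genes higher or lower were not computed for each left-out cell, so these counts have no background.

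Ratios that had been at least 2-fold changed sign in 8 cases. With the median over cells, Nr1d1 became -3.60 in T-type against S-type and -2.85 in T-type against NR, and Nr1d2 -0.40 in S-type against NR. With mean CPM, Cry2 became -0.26 in T-type against NR. Without each cell in turn that ratio ran from -0.33 (without J162_16) to 2.69, Nr1d2 from -1.79 to 0.62 in T-type against S-type and from -0.54 to 1.37 in S-type against NR, with the change of sign without J151_5, and Per2 from -3.08 to 0.22 (without J156_16) in T-type against S-type. The cause was not tested. No paired analysis was possible because no test between types was made, and the last number of a cell's name, which recurs across types, is not explained in the sources used here.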
